A study of Mus musculus with 12 samples.

Results

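Splenic type 1 dendritic cells (splenic DC1) were compared with the unstimulated DC2.4 dendritic cell line for the messenger RNA of 84 glycosylation genes of the mouse, measured by quantitative PCR on a commercial 96-well array plate. The comparison used the 6 deposited samples labelled as splenic DC-1 or as unstimulated DC2.4, out of 12 in the series, and all 84 panel genes. DC2.4 is an immortalised line made from mouse bone marrow and was grown adherent in RPMI medium with serum, with no stimulus in this group. Splenic DC1 were fresh cells sorted by flow cytometry from digested spleens, and the labels name XCR-1 for them whereas the sorting protocol names CD103 and CD8. The strain and age of the mice are not stated, nor whether these spleens came from the mice that were injected with MCA101 fibrosarcoma cells. Both groups share the extraction kit, the input range of 50 to 100 ng of RNA and the SYBR Green plate. They differ in immortalisation, culture, sorting and tissue of origin, and these cannot be told apart. The third file of each group held values computed from its first and second files, so n = 2 separately measured samples on each side, and 4 in all. The labels do not state that those came from separate cultures or animals. The spread behind each p-value is that of these samples, pooled over the tested genes, and may be technical.

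Glycosylation enzymes of the endoplasmic reticulum trim the sugar tree first placed on a protein, and enzymes of the Golgi then branch it, lengthen it with galactose and cap it with fucose or sialic acid. A second route, mucin-type O-glycosylation, starts when a GalNAc transferase puts a single sugar on serine or threonine, which core enzymes then extend. Dendritic cell surfaces carry these glycans, and both sialic acid and branched chains on them are read by lectins such as siglecs and galectins. Lysosomal glycosidases and sialidases take the chains apart again.

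The measurement was the threshold cycle (Ct), the PCR cycle at which a well's fluorescence crossed a fixed threshold, and it falls as template rises. The level used throughout is the mean Ct of the plate's 5 reference wells minus the gene's Ct, on a log2 scale, and differences are splenic DC1 minus DC2.4. Levels are compared between samples of a gene and not between genes, since primer efficiencies are not given. A Ct at or over 35, or a blank well, was set to 35. Of the 84 genes, 64 were tested, and 5 came too late to test, with a Ct under 35 in fewer than 2 samples. Another 15 were left out because their deposited wells broke the arithmetic that tied a group's files together, or held a whole number or a repeated value. Some of the repeats in the first splenic sample were values of the second splenic sample. All 4 samples were under Ct 35 in 60 of the tested genes, and the other 4 had 1 late well each. The panel holds 0 of 18 lineage genes listed to check cell identity, so neither label could be set against its defining markers. Whether fewer expressing cells or less RNA per cell lies behind a difference cannot be told apart in bulk samples.

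The splenic plates carried less sample template than the DC2.4 plates. The mean reference Ct was 20.63 and 16.96 in the DC2.4 samples against 22.31 and 24.32 in splenic DC1. Genes under Ct 35 numbered 66 and 72 in DC2.4 and 75 and 67 in splenic DC1, with a median Ct of 26.2 and 23.0 against 27.9 and 30.8. A well at Ct 35 therefore stood for a level of −14.37 and −18.04 in the DC2.4 samples but −12.69 and −10.68 in splenic DC1, so a scarce transcript could be seen at a lower level in the line. Built-in controls did not share this order. The reverse transcription control came at Ct 22.5 and 22.1 in DC2.4 and 20.1 and 21.0 in splenic DC1, that is, earlier in the splenic samples. Its gap to the PCR control was 3.3 and 3.4 cycles in DC2.4 against 2.0 and 2.5 in splenic DC1, and the part of this difference in the results was not tested. The genomic DNA well was late or blank in all 4 samples.

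**Figure D1:**
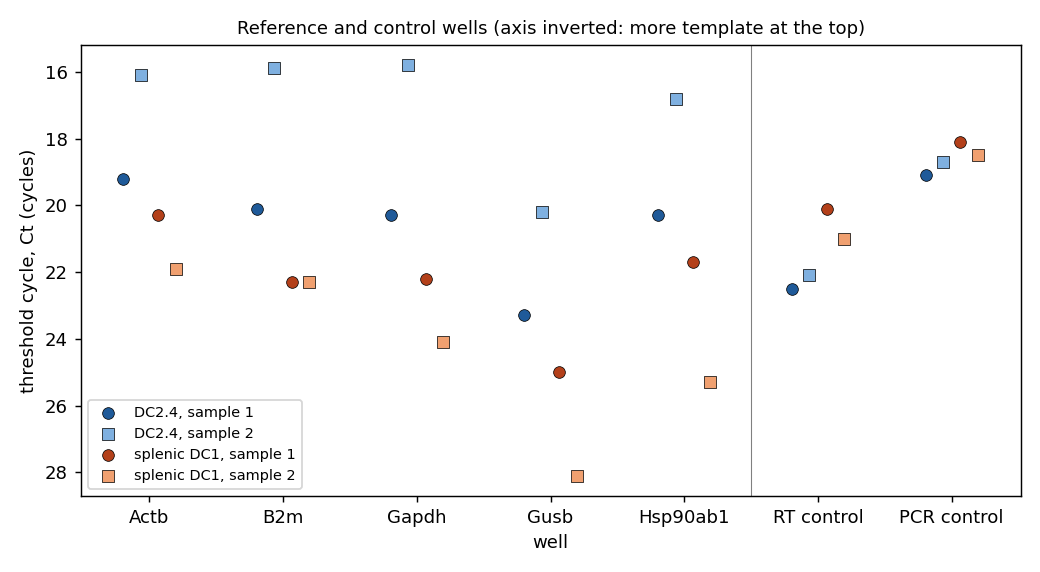
Threshold cycle (cycles, axis inverted) of the 5 reference wells, the reverse transcription (RT) control and the PCR control in each measured sample, 1 point a sample. All reference wells came latest in the second splenic sample or, for B2m, at 22.3 in both splenic samples, while the RT control came earliest in splenic DC1.

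The reference wells were also set against each other. Against the mean of the other 4 wells, Actb (beta-actin) stood at 1.79 and 1.12 in DC2.4 and at 2.46 and 3.06 in splenic DC1, a difference of 1.30 that made it the only reference well with a shift above 1. The difference was 0.23 for B2m, −0.65 for Gapdh, −0.33 for Gusb and −0.56 for Hsp90ab1, and exact two-sided permutation p-values ran from 0.333 to 1.0 (Gapdh 0.333, Actb 0.333), where 0.333 is the smallest that 2 against 2 samples allow. The authors normalised to Actb alone, and doing so moved the median difference of the tested genes from 0.34 to −0.70. The files name only the Actb well, and the other 4 names follow the manufacturer's usual layout.

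The direction of DC1 labels was also checked. In a rank correlation across genes, the ratio of tumor over splenic DC1 computed from the files ran against the authors' deposited table of fold changes (Spearman −0.98 over 59 genes), while TGF-beta over unstimulated DC2.4 ran with it (0.96 over 61 genes). Genes are not independent replicates, and these values only describe the 2 tables. They leave unsettled which DC1 files are splenic, so each call is also given with the files labelled tumor in their place. That fit has its own standard error (median 0.42 against 0.89), so its adjusted p-values often pass at smaller differences. "Splenic DC1" below means the samples labelled so.

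By relative level, splenic DC1 stood above DC2.4 in 11 of the 64 tested genes, which is 17.2% of those tested, and below it in 1, or 1.56%. The higher genes described here include the sialidase Neu2, the chain-building enzymes B3gnt8 and B4galt2, and the N-glycan enzyme Mgat3. The others described are the GalNAc transferases Galnt12, Galnt9 and Galnt10, the fucosyltransferases Fut8 and Fut11, and the sialyltransferase St3gal1. Of these higher genes, Mgat3, Galnt9 and Galnt10 lost their calls with all samples set to the least sensitive floor. The lower gene was Gcnt1, which builds core 2 O-glycans. Together the 12 calls (limma, Benjamini-Hochberg adjusted p under 0.05) are 18.8% of the genes tested. At an unadjusted p under 0.05 there were 12 higher and 3 lower genes. Over the whole tested panel 37 differences were above 0 and 27 below it, with a median of 0.34. The 2 groups did not overlap in 36 genes, 56.2% of those tested, 22 of them higher and 14 lower in splenic DC1, and all 12 called genes were among these.

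The model gave every gene the same standard error, 0.89 on the log2 scale, so that each 95% interval reached 1.76 to either side of its difference. That error pools the spread of all 64 tested genes as if they were independent. The very small p-values come from this pooling and not from a gene's own values in 4 samples. Real spread was less even. The 2 DC2.4 samples lay a median of 0.50 apart and at most 5.11, and the 2 splenic samples a median of 1.31 and at most 3.19. Almost the whole panel moved between the 2 splenic samples, the second being lower in 62 of 64 genes by a median of −1.29. The exceptions, higher in the second splenic sample, were Neu2 (−3.86 and −2.44) and B4galt2 (−8.40 and −5.22). In DC2.4 the second sample was lower in 43 genes. The 7 tested genes with the lowest DC2.4 levels, from −15.59 to −12.25 (Neu2, Galnt12, B3gnt8, Mgat3, Galnt9, B4galt2 and Galnt10), were all called. Their DC2.4 samples lay a median of 2.32 apart, against 0.47 in the other 57 genes, of which 5 were called. A single standard error thus understates the error of these 7. Their upward direction was also fixed by the floors, since a gene late in both splenic samples was given a mean level of −11.68 there. Neu2 and Galnt12, each with 1 late DC2.4 well, passed the filter only with their splenic wells. With all samples on the least sensitive floor, Neu2, B3gnt8, Galnt12 and B4galt2 stayed called and the others of the 7 did not.

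**Figure D2:**
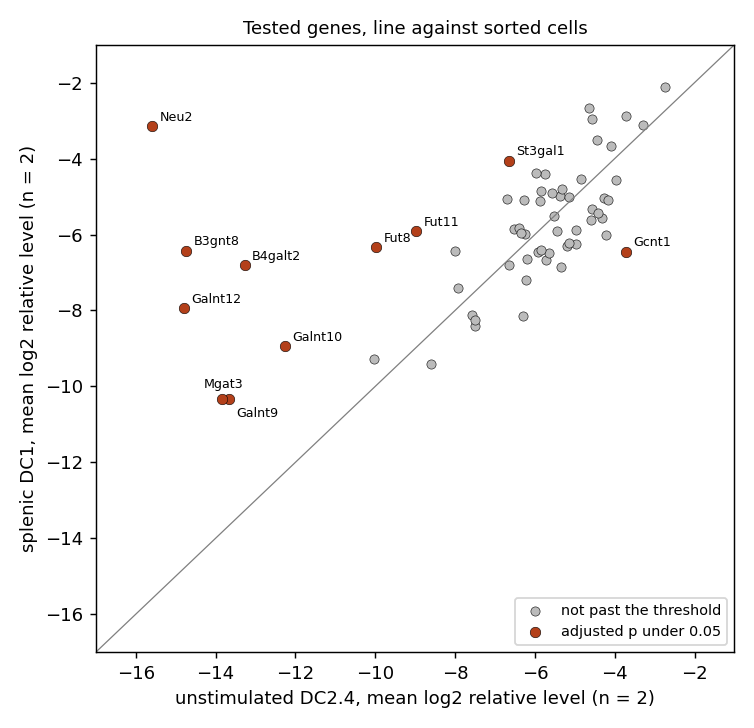
Mean log2 relative level of 63 of the 64 tested genes in DC2.4 (x axis) and splenic DC1 (y axis), n = 2 measured samples each, with the line of equal level. The 7 called genes at the left had DC2.4 levels of −12.25 or lower, and Gcnt1 is the called gene below the line.

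Neu2, a cytosolic sialidase that takes sialic acid off glycoproteins and gangliosides, had the largest difference of the tested panel. Its Ct was 41.1 and 33.8 in the DC2.4 samples and 26.2 and 26.8 in splenic DC1, which gave levels of −14.37 (set at Ct 35) and −16.82 against −3.86 and −2.44. Even before normalisation both splenic wells came about 7 cycles earlier than the earliest DC2.4 well, although those plates carried less template. Neu2 passed the filter only with its splenic wells, and the shared standard error understates its error. The difference was 12.44 (95% interval 10.68 to 14.21, about 5570-fold), with an adjusted p of 1.1e-25. Placing all samples on the least sensitive floor, that of the second splenic sample, cut it to 7.53 (adjusted p = 1.6e-15), and it was 11.22 without the second DC2.4 sample and 13.67 without the first. With the samples labelled tumor, 1 of which was blank at Neu2 and the other at Ct 32.8, the difference was 4.88 (adjusted p = 0.041). In a model of all 8 measured samples the splenic call missed the threshold (adjusted p = 0.086). The TGF-beta treated DC2.4 samples in that model lay far apart at Neu2, at Ct 23.8 and 34.5 (levels −1.72 and −17.52). Low Neu2 thus held in the unstimulated samples and not in every sample of the line. Neu1, the lysosomal sialidase, stood at −4.28 and −4.63 in DC2.4 and at −3.28 and −3.77 in splenic DC1, a difference of 0.93 (adjusted p = 0.57). Neu3, the plasma membrane sialidase, differed by −0.80, and Neu4 came too late to test. Of 3 tested sialidases 1 was thus higher and 2 did not pass, beside 17.2% higher over all genes tested. The list median was 0.93.

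**Figure D3:**
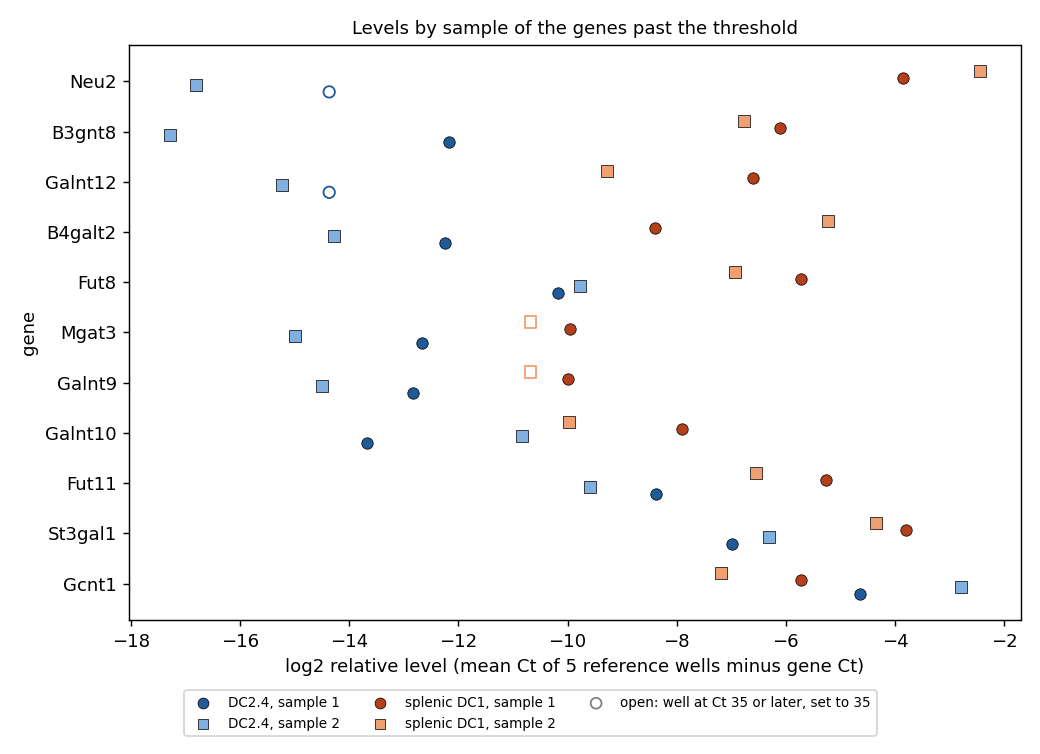
Log2 relative level in each measured sample of 11 of the 12 genes past the threshold, ordered by difference, where open symbols mark wells at Ct 35 or later. Neu2 shows the widest separation, from −16.82 and −14.37 in DC2.4 to −3.86 and −2.44 in splenic DC1, and only Gcnt1 runs the other way.

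Both enzymes that build lactosamine chains at the far end of the difference range also came earlier in raw cycles. B3gnt8, which lengthens poly-N-acetyllactosamine on branched N-glycans, had Ct values of 32.8 and 34.2 in DC2.4 and 28.4 and 31.1 in splenic DC1, and levels of −12.18 and −17.29 against −6.11 and −6.76. The splenic samples were close together while the DC2.4 samples lay 5.11 apart, the widest gap of the tested panel. B3gnt8 was higher by 8.30 (95% interval 6.54 to 10.06, 315-fold, adjusted p = 1.5e-14). Leaving out the second DC2.4 sample lowered this to 5.75 and leaving out the first raised it to 10.86, both past the threshold. The common floor gave 4.24 (adjusted p = 5.2e-06), the samples labelled tumor 4.42 (adjusted p = 0.074), and the 8-sample model an adjusted p of 0.052.

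B4galt2, a galactosyltransferase that makes lactosamine, came at Ct 32.9 and 31.2 in DC2.4 and 30.7 and 29.5 in splenic DC1. The levels were −12.24 and −14.29 in DC2.4 against −8.40 and −5.22, with all splenic values above all DC2.4 values but the splenic pair 3.19 apart. The difference was 6.46 (95% interval 4.69 to 8.22, 87.9-fold, adjusted p = 5.8e-10), and 3.87 on the common floor. Leaving out 1 sample at a time moved it between 4.86, without the second splenic sample, and 8.05, without the first. B4galt2 was blank in both samples labelled tumor, where the difference was 1.44 (adjusted p = 0.21). Those blank wells were set to levels of −11.1 and −12.55, both above the DC2.4 mean of −13.27. The direction of that difference therefore cannot be read. Neu2, B3gnt8 and B4galt2 were the 3 genes of the tested panel whose raw Ct was lower in both splenic samples than in both DC2.4 samples.

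The remaining galactose and lactosamine enzymes did not pass. B4galt1, the main galactosyltransferase of many tissues, stood at −3.60 and −3.85 in DC2.4 and −2.29 and −3.44 in splenic DC1, which did not overlap but differed by only 0.86 (adjusted p = 0.59). B4galt5, which makes lactosylceramide, differed by 1.61 (adjusted p = 0.26), B4galt3 by −1.52 (adjusted p = 0.29) and B3gnt3, a chain-lengthening enzyme of core 1 O-glycans, by −1.84 (adjusted p = 0.19). The list therefore held members at both ends of the range, with 2 of 7 higher and none lower. Over all genes tested 17.2% were higher. The list median was 0.86, beside 0.34 for all tested genes. Without the first splenic sample B3gnt3 passed, at −3.06 (adjusted p = 0.020), as did B4galt3, at −2.64 (adjusted p = 0.047), while without the second they were −0.63 and −0.39.

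Fucose enzymes were the one list in which every tested member was higher. Fut8, which adds core fucose to the base of N-glycans, stood at −10.18 and −9.77 in DC2.4 and at −5.73 and −6.94 in splenic DC1. The DC2.4 values lay within 0.41 of each other, and both splenic values were well above them. Fut8 differed by 3.64 (95% interval 1.88 to 5.40, 12.5-fold, adjusted p = 0.00099), kept its call without any 1 sample (3.04 without the first splenic sample, 4.24 without the second) and on the common floor, and passed with the samples labelled tumor (4.02, adjusted p = 0.0011) and in the 8-sample model (adjusted p = 0.019). It passed under 9 of 11 reference choices. Fut11, another member of the fucosyltransferase family, stood at −8.37 and −9.58 in DC2.4 and −5.27 and −6.55 in splenic DC1, again without overlap. Its difference was 3.06 (95% interval 1.30 to 4.83, 8.37-fold, adjusted p = 0.0056), and 2.25 (adjusted p = 0.033) with the samples labelled tumor. The Fut11 call was lost without the second DC2.4 sample (2.46, adjusted p = 0.30) and without the first splenic sample (2.43, adjusted p = 0.077). Only these 2 fucosyltransferases are on the panel list, with a median of 3.35, and 17.2% of all genes tested were higher.

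Among the enzymes that branch N-glycans, Mgat3 was higher and 5 others did not pass, beside 17.2% higher over all genes tested. Mgat3 adds the bisecting GlcNAc, a residue that stops further branching. It came at Ct 33.3 and 31.9 in DC2.4 and at 32.3 and 35.4 in splenic DC1, so the second splenic well was late, and its levels were −12.67 and −14.99 against −9.96 and −10.68. The difference of 3.51 (95% interval 1.74 to 5.27, adjusted p = 0.0014) was 3.87 with the late well left out (adjusted p = 0.0068). On a common floor, which replaces the DC2.4 values as well, it was 0.36 (adjusted p = 0.72). Leaving out the second DC2.4 sample also ended the call (2.35, adjusted p = 0.32), and with the samples labelled tumor it was 2.03 (adjusted p = 0.11). Mgat5, which makes the branch that galectins bind once it is extended, stood at −7.62 and −8.41 in DC2.4 and −5.83 and −7.04 in splenic DC1. Its groups did not overlap, but the difference of 1.58 did not pass (adjusted p = 0.27). Mgat4a differed by 1.64 (adjusted p = 0.26), Mgat1, which opens the branching steps, by 1.20, and Mgat4b, which makes the same branch as Mgat4a, by −1.24. The list median was 1.39, and 5 of 6 differences were above 0.

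GalNAc transferases, the starters of mucin-type O-glycans, form the largest list, with 17 on the panel and 10 tested. Of these, 3 were higher, none lower and 7 did not pass, beside 17.2% higher over all genes tested. The 3 (Galnt12, Galnt9 and Galnt10) are among the genes whose upward direction was fixed by the floors. The list median was 0.33, beside 0.34 over the tested panel. Galnt12 came at Ct 36.6 (late) and 32.2 in DC2.4 and at 28.9 and 33.6 in splenic DC1, giving levels of −14.37 and −15.24 against −6.61 and −9.28. Splenic values stood far above those of the line, though the second splenic well came later in raw cycles than the second DC2.4 well. Like Neu2, Galnt12 passed the filter only with its splenic wells, and the shared standard error understates its error. The difference was 6.86 (95% interval 5.10 to 8.62, 116-fold, adjusted p = 7.1e-11), 2.73 on the common floor (adjusted p = 0.0040), and 8.43 with the samples labelled tumor (adjusted p = 0.00014). It was 5.52 without the first splenic sample and 8.20 without the second, and passed in the 8-sample model too (adjusted p = 0.019).

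Galnt10 and Galnt9 were called on less. Galnt10 levels were −13.67 and −10.83 in DC2.4 and −7.90 and −9.98 in splenic DC1, so that the nearest values of the 2 groups were less than 1 apart. The difference was 3.30 (adjusted p = 0.0025), and it was 1.73 on the common floor (adjusted p = 0.12), 1.88 without the first DC2.4 sample (adjusted p = 0.50) and 2.26 without the first splenic sample (adjusted p = 0.095). With the samples labelled tumor it was 4.63 (adjusted p = 0.016). Galnt9 came at Ct 33.5 and 31.5 in DC2.4 and at 32.3 and 35.3 (late) in splenic DC1, with levels of −12.84 and −14.51 in DC2.4. In splenic DC1 the late well gave −10.68 and the other stood 0.68 above it. Its difference of 3.34 (adjusted p = 0.0025) was 3.67 with the late well left out and 0.34 on the common floor (adjusted p = 0.73). It was 2.50 without the second DC2.4 sample. Both samples labelled tumor were late for Galnt9, at Ct 38.8 and 35.4. The difference of 1.85 there (adjusted p = 0.091) rests on the level of Ct 35, so its direction cannot be read.

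The GalNAc transferases with earlier wells differed far less. Galnt1, a broadly acting member, stood at −5.45 and −5.70 in DC2.4 and −4.24 and −5.57 in splenic DC1, a difference of 0.67 (adjusted p = 0.65). Galnt6 stood at −4.93 and −5.35 in DC2.4 and at −4.53 and −5.49 in splenic DC1, which overlap, and differed by 0.13. Galnt3 differed by −0.94 and Galnt7, which adds sugars next to ones already in place, by −1.05. For Galnt6 and Galnt3 the choice of DC1 files mattered more than elsewhere on this list, since the samples labelled tumor differed from DC2.4 by −4.36 and −4.82 (adjusted p = 0.0018 for each). Galnt14 and Galntl6 came too late to test.

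Of the enzymes that extend the first O-linked sugar, Gcnt1 was lower in splenic DC1. It stood at −4.64 and −2.78 in DC2.4 and at −5.72 and −7.19 in splenic DC1. The highest splenic value was about 1 below the lowest DC2.4 value, and both groups were spread. Gcnt1 was lower by 6.71-fold (difference −2.75, 95% interval −4.51 to −0.98, adjusted p = 0.015), and −3.44 with the samples labelled tumor (adjusted p = 0.022). The call was lost without the second DC2.4 sample (−1.81, adjusted p = 0.63), without the second splenic sample (−2.01, adjusted p = 0.18) and in the 8-sample model (adjusted p = 0.086). C1galt1, which makes core 1, stood at −5.22 and −5.15 in DC2.4 and −5.58 and −7.04 in splenic DC1, a difference of −1.12 that did not pass (adjusted p = 0.54). Of 3 tested members 1 was lower and 2 did not pass, beside 1.56% lower over all genes tested. The list median of −1.12 stayed below 0 under all 11 reference choices (−2.17 to −0.60), and was −1.85 without the first splenic sample and −0.39 without the second.

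**Figure D4:**
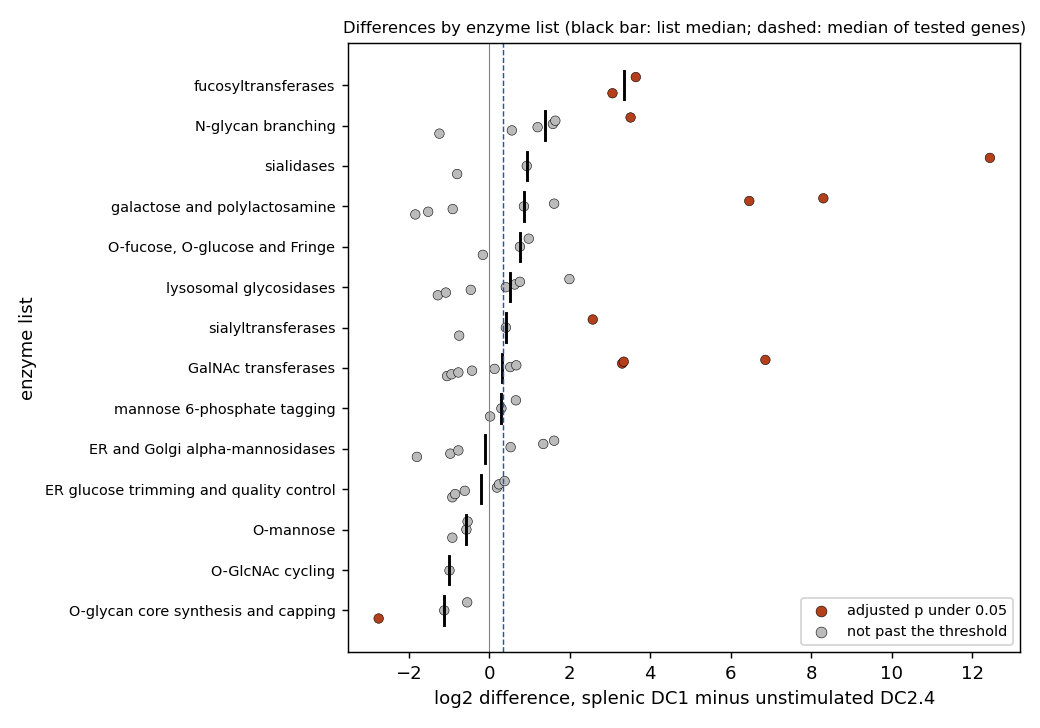
Log2 difference (splenic DC1 minus DC2.4) of 63 of the 64 tested genes, by enzyme list, with the list median as a black bar and the median of the tested panel, 0.34, as a dashed line. Fucosyltransferases had the highest list median, 3.35, and O-glycan core enzymes stood at −1.12.

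St3gal1, which puts sialic acid on core 1 O-glycans and so blocks their branching, was the one sialyltransferase called. It stood at −6.98 and −6.30 in DC2.4 and at −3.79 and −4.34 in splenic DC1, with each pair within 0.68 and a clear gap between the groups. The difference was 2.57 (95% interval 0.81 to 4.34, 5.95-fold, adjusted p = 0.024), and 1.43 with the samples labelled tumor (adjusted p = 0.041). Leaving out 1 sample at a time kept its size (2.23 to 2.91), but the adjusted p passed only without the second splenic sample (0.026). St6gal1, which caps N-glycans with sialic acid, stood at −5.85 and −6.88 in DC2.4 and −4.98 and −6.91 in splenic DC1. These overlap, and the difference was 0.41 (adjusted p = 0.72). Only 3 of the 8 sialyltransferases could be tested, since St6galnac1, St8sia2, St8sia3, St8sia4 and St8sia6 were left out. The median of the 3 was 0.41.

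Lysosomal glycosidases named here did not pass with all 4 samples. Man2b1, the lysosomal alpha-mannosidase, differed by 1.99 (adjusted p = 0.13), between levels of −4.23 and −5.06 in DC2.4 and −1.97 and −3.34 in splenic DC1. It passed without the second splenic sample (2.67, adjusted p = 0.039) and was 1.31 without the first. Fuca1, the lysosomal fucosidase, differed by 0.41 (adjusted p = 0.72), the beta-galactosidase Glb1 by −1.28 (adjusted p = 0.44) and the beta-mannosidase Manba by −1.08.

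No gene of the early trimming steps passed with all 4 samples and the 5 reference wells. The 6 tested genes of glucose trimming and quality control in the endoplasmic reticulum ran from −0.92 (Prkcsh) to 0.38 (Edem2), with a median of −0.21. The 6 alpha-mannosidases of the endoplasmic reticulum and Golgi ran from −1.80 to 1.61, with a median of −0.12. Within them Man1a2 and Man1a, related Golgi trimming enzymes, differed in opposite directions. Man1a2 stood at −4.07 and −4.35 in DC2.4 and −5.17 and −6.85 in splenic DC1 (difference −1.80, adjusted p = 0.19). It passed without the first splenic sample (−2.64, adjusted p = 0.047), with B2m left out of the reference (−1.75, adjusted p = 0.044) and with the mean of the tested genes (−2.59, adjusted p = 0.0097), and was −0.96 without the second splenic sample. Man1a stood at −6.10 and −5.40 against −3.96 and −4.86 (difference 1.34). Neither overlapped, and the gap between the 2 genes was not tested. Man2a1, the Golgi enzyme that opens the way to complex N-glycans, differed by 1.61 (adjusted p = 0.26).

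The other routes on the panel gave no call. The 3 genes that tag enzymes with mannose 6-phosphate for the lysosome had a median of 0.30, the 3 of O-fucose and related sugars 0.76, and the 3 of O-mannose −0.57. Ogt, which puts single GlcNAc residues on nuclear and cytosolic proteins, stood at −4.14 and −4.71 in DC2.4 and −4.09 and −6.76 in splenic DC1. Those ranges overlap, the splenic pair lay 2.66 apart, and the difference of −1.0 did not pass (adjusted p = 0.57). The smallest difference called was 2.57 in size and the largest that did not pass was 1.99, so differences under about 2 in size did not pass with 2 samples a group.

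The choice of reference moved every difference by the same amount and also changed the fitted standard error, which was 0.89 with the 5 wells, 1.76 with B2m alone, 1.04 with Actb alone and a median of 0.45 with the mean of the tested genes. Under 11 choices (each reference well alone, each left out, or the mean of the tested panel) the panel median ran from −0.70 to 0.87. Shifts of that size could not turn the sign of a called gene, since the smallest called difference was 2.57 in size. Neu2, B3gnt8, Galnt12 and B4galt2 passed under all 11. Fut8, Mgat3, Galnt9 and Fut11 passed under 9, and Galnt10, St3gal1 and Gcnt1 under 7. With Actb alone 4 genes were higher and 1 was lower. With the mean of the tested genes as reference the panel median was −0.45 and the split 11 higher and 25 lower.

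**Figure D5:**
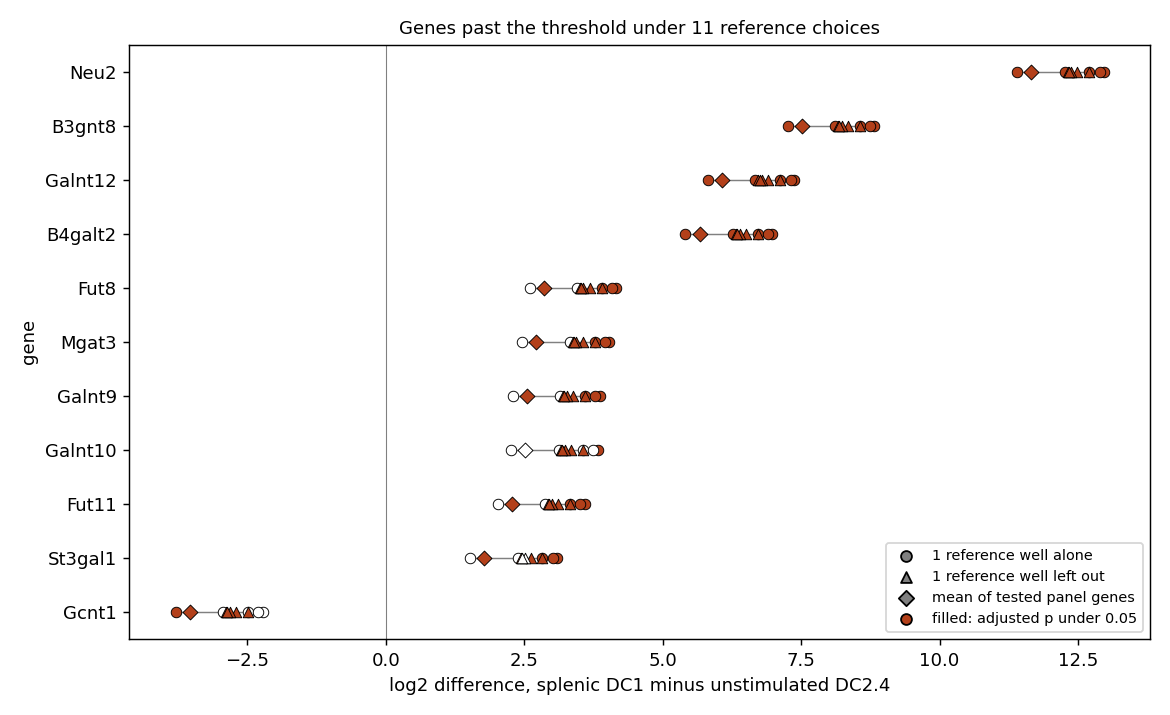
Log2 difference of 11 of the 12 called genes under 11 choices of reference, 1 symbol a choice, filled where the adjusted p was under 0.05. The 4 genes at the top are filled throughout, and Gcnt1 stayed between −3.79 and −2.22.

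Replacing the splenic files with those labelled tumor gave 23 called genes, 8 higher and 15 lower, with a panel median of −0.45. The files labelled splenic gave 11 higher and 1 lower, with a median of 0.34. Standard errors differed, a median of 0.42 with the files labelled tumor against 0.89, so the counts are not like for like. Both comparisons share the DC2.4 samples, so their values are set side by side above, gene by gene, and no overlap is drawn from them.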

How the data were processed

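Per the labels' protocols, RNA was reverse transcribed and amplified with SYBR Green, and the deposited sample files hold a Ct per well, another unit than counts or intensities. Per the file headers, the Ct threshold was 0.2 and the baseline ran from cycle 3 to 15. The deposited series matrix holds Ct minus the Actb Ct, a log2 scale. A table of fold changes (ratio of test over control) deposited by the authors was used only to check directions. Wells were named by matching them to the matrix within 0.002 cycles, and 83 symbols were found in the RefSeq table, plus 1 as a synonym.

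The third splenic file and the second file labelled tumor, which enters the values given for those samples and the 8-sample model, were moved by 1 well. The third splenic file then equalled a constant times the mean of the group's other files in 76 of 86 wells (0 as deposited), and the third DC2.4 file did so in 80 of 88. These computed files were therefore not used. The design had named all deposited samples, and n is 2 a group. The 15 genes left out (A4gnt, B3gnt4, Galnt13, Galnt5, Galnt16, Galntl5, Mgat4c, St6galnac1, St8sia2, St8sia3, St8sia4, St8sia6, Uggt1, Uggt2 and Wbscr17) broke this relation, or were whole numbers or repeats in wells G06 to G12 of the first splenic file. Wells G09, G11 and G12 of the first splenic file held the values of wells G08, G10 and G11 of the second splenic file. Galnt14, Galntl6, Gcnt3, Mgat5b and Neu4 were late.

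Genes with Ct under 35 in at least 2 of the 4 samples were fitted with limma 3.58.1 (lmFit, eBayes, two-sided) in R 4.3.3, adjusted over 64 genes, with a threshold of 0.05. The fit was also run on simulated data with errors drawn independently for each gene. Those data lack the panel-wide shift between the splenic samples, so they do not test the fit under it. Files were parsed in Python 3.11.15 with pandas 2.3.3, and permutation tests were enumerated in Python. Rank correlations used scipy 1.17.1, and plots used matplotlib 3.10.9. Named genes were those past the threshold (up to 15 per direction), the 5 largest falls without overlap, and Ogt, Mgat5, Fut8, St6gal1, St3gal1, C1galt1, Neu1, B4galt1, Fuca1 and Galnt1. The other genes given with values were chosen after their values were seen. The genes, lists and tests were chosen with earlier results of these data known. Alternatives changed the reference wells, the late limit, the filter, the samples, the variance model and the source of values. Of the genes past the threshold, 1 is counted but not reported here. No sequence or coordinate was used.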

Additional observations from a re-analysis of the deposited data

Results flagged for a closer look

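Galnt13, a GalNAc transferase, was left out of the tests because the third DC2.4 file broke the relation to its group there, and it showed a signal in splenic DC1. Its Ct was 38.8 and 39.9 in the DC2.4 samples and 33.9 and 32.6 in splenic DC1, and 37.9 and blank in the samples labelled tumor. The mean splenic level stood 6.28 on the log2 scale above the level that Ct 35 represents in DC2.4. Much of that gap lies between the plates' floors. Galnt14, late in all 4 samples, was given mean levels of −16.21 in DC2.4 and −11.68 in splenic DC1, and Galnt13 stood at −9.93 in splenic DC1. No test was made of it.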

How the results depend on the processing

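The count of 12 called genes fell to 5 with Actb alone (4 higher, 1 lower), 4 with B2m alone, 6 with all 8 measured samples in the model and 5 with the deposited series matrix. It rose to 36 with the tested-gene mean as reference, 22 with all 6 deposited files (15 higher, 7 lower) and 23 with the samples labelled tumor. Leaving out 1 sample gave 6 to 12 calls, with 6 without the second DC2.4 sample, and without the first splenic sample 7 higher and 4 lower. Limits of Ct 33 or 40, or late wells left out, kept 12. A robust variance trend gave 10, of which 9 were among the 12, and a common floor, added after seeing the data, gave 9 (Mgat3, Galnt9 and Galnt10 lost). No filter gave 17, and keeping doubtful genes 15. The panel median was −0.70 with Actb alone and in the series matrix, and −0.45 with the tested-gene mean and with the samples labelled tumor.

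Of 968 values over 36 named genes, 30 changed sign, all in genes not called, though reference shifts were too small to turn a called gene. With Actb alone, and equally in the series matrix, the values that changed sign were St6gal1 (−0.63), Neu1 (−0.11), B4galt1 (−0.19), Fuca1 (−0.63), Galnt1 (−0.37) and Galnt6 (−0.91). With the tested-gene mean they were St6gal1 (−0.37), Fuca1 (−0.38), Galnt1 (−0.12) and Galnt6 (−0.66). With the samples labelled tumor they were Mgat5 (−0.67), Neu1 (−1.64), B4galt1 (−1.77), Galnt6 (−4.36), Mgat4a (−0.45) and B4galt5 (−1.67). Galnt6 was −0.06 with B2m alone and with all 6 files. Leaving out 1 sample moved Ogt between −2.33 and 0.33, St6gal1 between −0.55 and 1.38, Fuca1 between −0.27 and 1.09 and Galnt6 between −0.35 and 0.61. The cause was not tested. No paired analysis was possible because the sample titles carry running numbers that pair no splenic sample with a DC2.4 sample. Late DC2.4 wells limit the size of the Neu2 and Galnt12 differences, which were 14.94 and 7.68 with a limit of Ct 40. The late splenic wells of Mgat3 and Galnt9 act the other way (3.30 and 3.16).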
